A study of Mus musculus with 2 samples.

Results

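Tox, Tox2, Nr4a1, Nr4a2, Nr4a3 and Nfatc1 are 6 of the 32285 genes listed in both count matrices, and were taken by their symbols. They were followed in single γδ T cells of C57BL/6J mice aged 18 to 20 weeks, in 1 library from colon tumor (TIL) and 1 from normal colon tissue (IEL). No allele, agent or other treatment is given for either group, the number of mice behind each library is not stated, and the preparation text names tumour tissue for both and no sort. Neither group had a second library, so differences hold for the pair of libraries sequenced, and intervals cover counting error only.

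γδ T cells of the gut include cells that make IL-17 and cells with a cytotoxic programme. TOX is a DNA-binding protein of the HMG-box family that is required for exhausted CD8 T cells to persist in mouse chronic infection and tumours, and Tox2 encodes a close relative. NR4A1, NR4A2 and NR4A3 are orphan nuclear receptors made within a short time of antigen receptor signalling, and they restrain effector function in mouse T cells. NFATc1 is switched on by calcium and calcineurin, and NFAT proteins act upstream of Tox, the Nr4a genes and Pdcd1, which encodes the inhibitory receptor PD-1.

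The matrices give unique molecular identifiers (UMIs), that is, counts of captured transcript 3' ends. The TIL library held 94953893 UMIs in 13245 barcodes and the IEL library 69414155 UMIs in 9398 barcodes. After filtering and clustering, 11679 of 12407 TIL cells (94.1%) and 9094 of 9128 IEL cells (99.6%) were γδ T-like, with medians of 6378 and 6853.5 UMIs per cell. The labelled cell type was checked against Trdc, the δ chain constant gene, which had 3980 CPM among TIL and 814 CPM among IEL γδ T-like cells (CPM, UMIs of a gene scaled to a total common to both libraries). Trac, the α chain gene, had 99.4 CPM for TIL and 325 CPM for IEL cells, and was seen in 15.6% of TIL and 43.5% of IEL cells once depth was matched, so the IEL label was less clear-cut. Of the TIL cells, 9723 fell in IL-17-like, 1099 in cytotoxic-like, 713 in recirculating-like and 144 in cycling-like clusters. Of the IEL cells, 58 fell in IL-17-like, 8919 in cytotoxic-like, 23 in recirculating-like and 94 in cycling-like clusters, so tissue and cell subset largely coincided. The libraries shared 33 barcodes, of which 30 were in TIL and 32 in IEL γδ T-like cells.

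On GRCm38 the protein-coding genes of the Tox and Nr4a families lie at chr4:6686353-6991557 on the minus strand (Tox), chr2:163203125-163324170 on the plus strand (Tox2), chr15:101254269-101274795 on the plus strand (Nr4a1), chr2:57106830-57124003 on the minus strand (Nr4a2) and chr4:48045153-48086447 on the plus strand (Nr4a3). Tox overlaps the antisense gene Gm11802 and Nfatc1 the antisense gene AC123818.1, and whether counting used strand is not given in the sources used here, so the counts of Tox and Nfatc1 are uncertain to that extent.

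The promoters of the 3 Nr4a genes are shown because pairs of these genes gave the most frequent joint detection in single TIL cells. They are RefSeq sequences of GRCm38.p6, from 250 bases before to 50 bases after the start, at chr15:101266596-101266895 (plus strand), chr2:57123954-57124253 (minus strand) and chr4:48045055-48045354 (plus strand). Capitals mark TGACG, the core of the cAMP response element, on either strand.
Nr4a1: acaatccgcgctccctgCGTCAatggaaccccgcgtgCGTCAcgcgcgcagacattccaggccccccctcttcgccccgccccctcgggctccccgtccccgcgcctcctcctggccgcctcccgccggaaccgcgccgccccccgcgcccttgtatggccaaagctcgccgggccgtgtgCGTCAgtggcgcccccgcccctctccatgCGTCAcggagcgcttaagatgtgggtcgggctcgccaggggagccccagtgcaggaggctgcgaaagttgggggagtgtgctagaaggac
Nr4a2: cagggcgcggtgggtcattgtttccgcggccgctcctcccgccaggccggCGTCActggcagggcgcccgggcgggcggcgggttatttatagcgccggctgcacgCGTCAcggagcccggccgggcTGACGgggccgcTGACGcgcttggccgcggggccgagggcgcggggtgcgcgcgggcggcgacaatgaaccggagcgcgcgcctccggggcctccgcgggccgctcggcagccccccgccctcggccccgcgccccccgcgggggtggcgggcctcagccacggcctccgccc
Nr4a3: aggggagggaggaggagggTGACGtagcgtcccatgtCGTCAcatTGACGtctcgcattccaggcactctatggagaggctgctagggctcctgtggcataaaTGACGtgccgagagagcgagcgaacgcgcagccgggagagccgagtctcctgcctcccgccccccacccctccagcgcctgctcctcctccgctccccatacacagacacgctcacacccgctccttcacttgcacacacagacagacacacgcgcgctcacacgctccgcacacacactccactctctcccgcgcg
Each of these promoters held 4 matches to TGACG. Of 32851 promoters of the same length, 20.8% held at least 1 match and 0.231% at least 4. The full element TGACGTCA, which would hold a match on each strand, was in none of the 3, against 1.79% of all promoters. GGAAA, the core bound by NFAT proteins, occurred once in the Nr4a2 window and not in the Nr4a1 or Nr4a3 window, against at least 1 match in 61.3% of all promoters. AAAGGTCA, the response element of the NR4A receptors themselves, and TGANTCA, the AP-1 element, were in none of the 3, against 1.51% and 7.81% of all promoters. These matches describe letters in the window and do not show that a factor binds there.

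Nr4a2 was the member that set the libraries apart. Summed over γδ T-like cells, Nr4a2 had 166 CPM (95% interval 163 to 168) in TIL and 776 CPM (770 to 783) in IEL cells, with a log2 ratio of -2.23 (-2.26 to -2.20). It was the only one of the 5 members above 20 CPM to differ by 2-fold or more. Among all 6327 genes with at least 20 CPM in either library, 13.8% were lower in TIL by that rule, 11.1% were higher, and the median log2 ratio was -0.10.

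The remaining members did not pass 2-fold. Tox had 69.5 CPM for TIL and 87.4 CPM for IEL cells (log2 ratio -0.33, interval -0.38 to -0.28). Nfatc1 had 62.1 CPM for TIL and 75.2 CPM for IEL cells (-0.28, -0.33 to -0.22). Nr4a1 had 106 CPM for TIL and 123 CPM for IEL cells (-0.21, -0.25 to -0.16), and Nr4a3 180 CPM for TIL and 176 CPM for IEL cells (0.03, -0.01 to 0.06). Tox2 was scarcely captured, with 106 UMIs (1.24 CPM) in TIL and 113 UMIs (1.65 CPM) in IEL cells, too few to follow it further. Over the same cells Pdcd1 had 554 CPM for TIL and 20.1 CPM for IEL cells, with a log2 ratio of 4.79 (4.71 to 4.86), so no member differed in the direction and size of Pdcd1. Keeping only cells with a γδ receptor UMI and no Trac UMI left 7637 TIL and 2010 IEL cells, and the log2 ratio of Nr4a2 was then -2.10. In sums over cells, fewer cells using a gene and less RNA per cell cannot be told apart.

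Nr4a2 also stood apart in the share of cells. After thinning each cell to 2000 UMIs (11617 TIL and 9021 IEL cells; 62 and 73 were too shallow), Nr4a2 was detected in 21.6% of TIL and 67.5% of IEL cells. Tox was detected in 12.7% and 14.7%, Nfatc1 in 11.6% and 12.6%, Nr4a1 in 15.2% and 19.2%, and Nr4a3 in 25.9% and 26.6% of TIL and IEL cells. Without thinning, Nr4a2 was in 42.5% of TIL and 90.5% of IEL cells, and Tox in 35.0% and 43.1%. None of the 6 members was detected in 43.2% of TIL and 16.8% of IEL cells, and 3 or more were detected in 6.55% of TIL and 12.8% of IEL cells.

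Free RNA and doublets bear on these shares. In 209 thinned macrophage or monocyte-like cells of the TIL library, Tox, which is chiefly a lymphocyte gene, was detected in 3.35%, against 12.7% of TIL γδ T-like cells, at medians of 7710 and 6378 UMIs. Nr4a1 was detected in 18.7%, Nr4a2 in 11.96%, Nr4a3 in 17.7% and Nfatc1 in 10.05% of the same macrophage or monocyte-like cells. Among TIL γδ T-like cells, Nr4a2 was detected in 21.6% and Nfatc1 in 11.6%, so the Nfatc1 shares lay close together. Myeloid cells use Nr4a genes themselves and so give no background level for them. Whether the Nfatc1 share reflects background was not tested. The IEL library held 1 macrophage or monocyte-like cell.

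**Figure D1:**
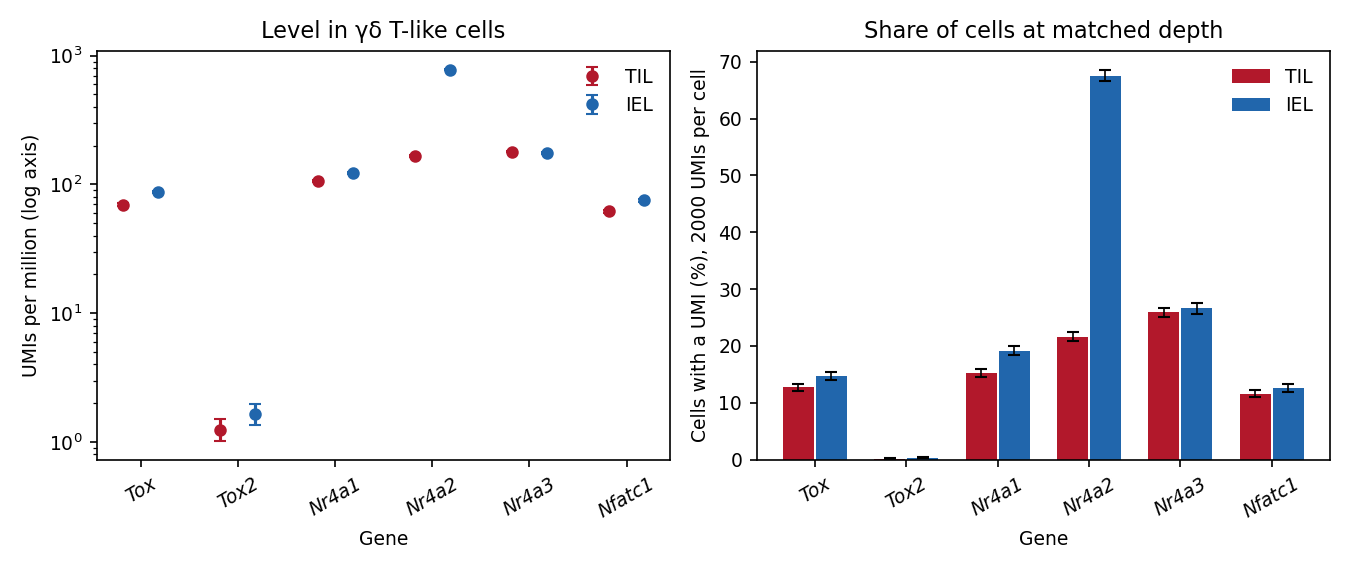
Left, level of each member in γδ T-like cells (CPM, log axis; points with 95% Poisson intervals); right, share of cells with at least 1 UMI at 2000 UMIs per cell (bars with 95% Clopper-Pearson intervals), 1 library per group. Nr4a2 stood at 166 CPM for TIL and 776 CPM for IEL cells, while each of the other members had TIL and IEL levels less than 2-fold apart.

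The difference in Nr4a2 followed cell subset within the tumour. TIL cytotoxic-like cells had 485 CPM of Nr4a2 and TIL IL-17-like cells 137 CPM, a log2 ratio of 1.82 (1.76 to 1.88), and 52.3% of cytotoxic-like and 18.2% of IL-17-like TIL cells had a UMI at matched depth. In that contrast 8.8% of 5990 genes were higher and 10.9% lower in the cytotoxic-like cells. Nr4a1 ran the other way, with 57.9 CPM in cytotoxic-like and 110 CPM in IL-17-like TIL cells (-0.93, -1.08 to -0.79), just short of 2-fold. Nfatc1 (0.57) and Tox (0.43) were modestly higher in the cytotoxic-like cells, and Nr4a3 had 185 CPM in cytotoxic-like and 182 CPM in IL-17-like cells. Recirculating-like TIL cells had 172 CPM of Nr4a2 and 48.0 CPM of Tox, against 137 and 69.1 CPM in IL-17-like cells. Neither difference passed 2-fold, in a contrast where 8% of 5724 genes were higher, 23.4% lower, and the median gene stood at -0.36.

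Cytotoxic-like cells were the subset that both tissues held in number. Nr4a2 had 485 CPM for TIL and 781 CPM for IEL cytotoxic-like cells, so the log2 ratio narrowed to -0.69 (-0.74 to -0.64). Nr4a1 was the member past 2-fold here, with 57.9 CPM for TIL and 120 CPM for IEL cells (-1.05, -1.20 to -0.91). That IEL value includes a heat shock cluster of 1071 cells, with 208 CPM of Nr4a1. The other IEL cytotoxic-like cells had 108 CPM, less than 2-fold above the TIL value. Of 6032 genes, 4.54% were lower and 2.04% higher in TIL cytotoxic-like cells. Tox (0.09), Nr4a3 (0.07) and Nfatc1 (0.21) differed little.

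The cytotoxic-like cells of the tumour came mostly from clusters that held few IEL cells, and these clusters differed in Nr4a2, Tox and Nfatc1. One, of 705 TIL and 11 IEL cells led by Gzmc, Tmem158 and Pglyrp1, had 308 CPM of Nr4a2, 50.2 CPM of Nr4a1, 78.8 CPM of Tox and 57.3 CPM of Nfatc1. The other, of 346 TIL and 4 IEL cells with Bcl2l15 and Cela1 among its leading genes, had 854 CPM of Nr4a2, 34.2 CPM of Nr4a1, 135 CPM of Tox and 163 CPM of Nfatc1. The 5 IEL cytotoxic-like clusters ranged between 564 and 978 CPM for Nr4a2, 75.3 and 208 CPM for Nr4a1, 66.2 and 105 CPM for Tox, and 59.9 and 92.7 CPM for Nfatc1. The Bcl2l15 cluster thus reached the IEL range of Nr4a2 (log2 ratio to IEL cytotoxic-like cells 0.13) and exceeded the IEL clusters in Tox and Nfatc1, whereas the Gzmc cluster lay below IEL in Nr4a2 (-1.34) and Nfatc1 (-0.39). Against IEL cytotoxic-like cells, 6.45% of 6049 genes were lower in the Gzmc cluster and 4.61% of 6123 genes were higher in the Bcl2l15 cluster. By the same rule 2.36% were higher in the Gzmc cluster and 6.97% lower in the Bcl2l15 cluster. Both clusters lay below every IEL cluster in Nr4a1. Trac had 148 CPM in the Gzmc cluster and 320 CPM in the Bcl2l15 cluster, so the Bcl2l15 cluster also resembled IEL cells in the gene that goes against the γδ label.

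The 58 IEL cells in IL-17-like clusters gave the converse comparison, on few UMIs. Nr4a2 had 137 CPM for TIL and 289 CPM for IEL IL-17-like cells (-1.08, -1.36 to -0.78), and Nr4a1 had 110 CPM for TIL and 410 CPM for IEL IL-17-like cells (-1.89, -2.13 to -1.65). Pdcd1 had 634 CPM for TIL and 820 CPM for IEL IL-17-like cells, so these IEL cells had no less Pdcd1 than their tumour counterparts. In this contrast 9.29% of 5975 genes were lower and 5.96% higher in TIL. Of the 58 cells, 1 carried a barcode also found in the TIL library.

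In cycling-like cells Nr4a2 had 93.4 CPM for TIL and 746 CPM for IEL cells (-3.00, -3.21 to -2.79), where 14.8% of 6353 genes were lower and 7.96% higher in TIL. Different clusters held most of these cells: 128 of the 144 TIL cells came from a cluster with no IEL cell, and all 94 IEL cells from another. The cluster of the 128 TIL cells had 3685 CPM of Il17a and 3398 CPM of Gzma. That of the IEL cells had 12.3 CPM of Il17a and 13100 CPM of Gzma, so tissue and subset largely coincided here too.

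**Figure D2:**
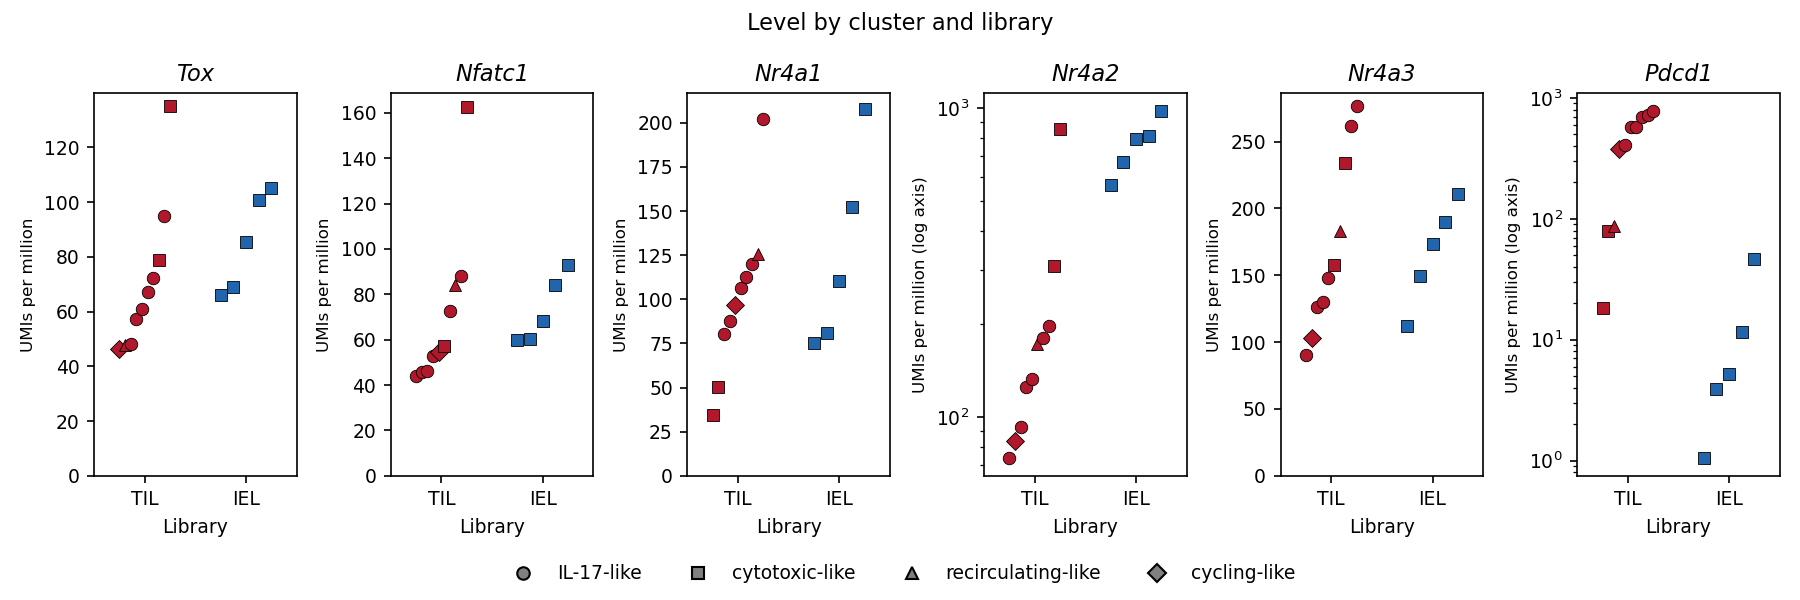
Level of 5 members and of Pdcd1 (CPM; log axis for Nr4a2 and Pdcd1) in each cluster with at least 100 γδ T-like cells of a library, 10 in TIL and 5 in IEL, ordered by level within a library; the symbol gives the subset. For Nr4a2, 1 TIL cytotoxic-like cluster, at 854 CPM, lies among the IEL clusters and the other TIL clusters lie below them.

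Over all 15 cluster-by-library units, Tox spanned 46.3 to 135 CPM across TIL clusters and 66.2 to 105 CPM across IEL clusters. Nfatc1 spanned 43.8 to 163 CPM across TIL clusters and 59.9 to 92.7 CPM across IEL clusters. Nr4a3 spanned 90.2 to 277 CPM across TIL clusters and 112 to 211 CPM across IEL clusters. Nr4a1 spanned 34.2 to 202 CPM across TIL clusters and 75.3 to 208 CPM across IEL clusters. The ranges of these genes overlapped between libraries. As a description across units, which share libraries and depth, Nr4a2 and Pdcd1 had a Pearson r of -0.92 and a Spearman rho of -0.79 over the 15 units, and -0.81 and -0.38 over the 10 TIL units. Tox and Nr4a2 had r = 0.71 over the 15 and 0.84 over the 10 TIL units.

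The genes most like each member over the 15 units were named by r of log2(CPM + 10) among 5328 genes. Nr4a2 was most like Fam122a, Whamm, Rnpc3, Snrk and Zbtb38, with r between 0.98 and 0.99. Tox was most like Gatad2a, Nbr1, Mcam, Trio and Csnk1d (0.87 to 0.89). Nr4a1 was most like Map3k8, Bcl11b, Jund, Cdkn2d and Camk2d (0.74 to 0.88). Nr4a3 was most like Fosl2, Jarid2, Ice1, Nbr1 and Atg13 (0.73 to 0.82), and Nfatc1 like Cnppd1, Gtpbp1, Pnpla7, Sun2 and Mvk (0.79 to 0.85). Tox2 was too low for its likeness to be read.

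Many genes of a dissociation stress list, which tissue handling can induce, were also higher in IEL cells, as was Nr4a2. Some of them, such as Fos, Fosb and Jun, are also early genes induced by the T cell receptor. Genes of the list summed to between 7910 and 32078 CPM in the IEL clusters and to between 4328 and 7176 CPM in the TIL clusters. Of its 16 measured genes, 10 were lower in TIL by the 2-fold rule and none higher. Among the lower were Hspa1a (15.3 CPM for TIL and 769 CPM for IEL cells) and Fos (170 CPM for TIL and 2164 CPM for IEL cells). Short of 2-fold, Atf3 (log2 ratio 0.33), Egr1 (0.21) and Ier2 (0.08) were slightly higher in TIL. Hspa8 (-0.93), Zfp36 (-0.88) and Junb (-0.54) were lower, also short of 2-fold. In cytotoxic-like cells alone, 11 of the 16 measured genes were lower in TIL and none higher. Among all 6032 genes there, 4.54% were lower and 2.04% higher. Within IEL, the heat shock cluster of 1071 cells had 208 CPM of Nr4a1, against 108 CPM in the other cytotoxic-like cells (log2 ratio 0.94, 0.87 to 1.02). No member passed 2-fold in that contrast, where 0.908% of 5944 genes did upwards and 0.252% downwards. Nr4a3 ran the other way there, with 112 CPM in heat shock and 185 CPM in other cytotoxic-like cells (-0.72, -0.82 to -0.62), and Nr4a2 had 791 CPM in heat shock and 780 CPM in other cells. Without the heat shock cluster, the log2 ratio of TIL over IEL was -0.07 for Nr4a1. As a description, Nr4a2 and the list sum had r = 0.68 and rho = 0.59 over the 15 units, and r = 0.16 and rho = 0.15 over the 10 TIL units. The TIL Bcl2l15 cluster had a list sum of 5721 CPM and 854 CPM of Nr4a2. The part of tissue handling in the Nr4a2 difference between libraries was not tested.

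Other genes of the pathway were counted from lists. Their counts are to be read against the 11.1% higher and 13.8% lower among all genes, and several lists lie near it. Of 16 measured calcineurin and NFAT genes, 2 were higher in TIL by the 2-fold rule, Nfatc2, a further NFAT factor (63.5 CPM for TIL and 17.2 CPM for IEL cells), and Fkbp1a, the FK506-binding protein (335 CPM for TIL and 76.2 CPM for IEL cells). Ppp3cc, a calcineurin catalytic subunit, was lower (27.8 CPM for TIL and 116 CPM for IEL cells), with 0.43 as the median log2 ratio of the list. Of 14 early genes induced by the T cell receptor, 2 were higher (Nfkbia and Nfkbid) and 3 lower (Fos, Fosb and Jun), with a median of -0.30. Of 12 other exhaustion-associated regulators, 6 were higher (Batf, Irf4, Prdm1, Bhlhe40, Id2 and Maf) and 5 lower (Ikzf2, Rgs1, Tcf7, Id3 and Tbx21), led by Maf (277 CPM for TIL and 5.99 CPM for IEL cells) and Tbx21 (3.01 CPM for TIL and 55.2 CPM for IEL cells). Maf and Tbx21 are also markers by which the subsets were named. Of 8 inhibitory receptors, 3 were higher (Pdcd1, Havcr2 and Ctla4) and 4 lower (Cd244a, Cd160, Entpd1 and Lilrb4a). Cd160 is likewise a marker by which the subsets were named. It had 271 CPM for TIL and 211 CPM for IEL cytotoxic-like cells (log2 ratio 0.36). In cytotoxic-like cells alone, 2.04% of all 6032 genes were higher and 4.54% lower in TIL, so few calls would be met in any short list. None of 10 measured regulators was higher in TIL there and 3 were lower (Rgs1, Id3 and Tbx21). None of 15 calcineurin and NFAT genes was higher there and 1 was lower (Ppp3cc), and none of 13 early genes was higher and 3 were lower (Fos, Fosb and Jun). Of the 8 inhibitory receptors in these cells, Pdcd1 was higher and Havcr2 lower, with 11.8 CPM of Havcr2 for TIL and 26.8 CPM for IEL cytotoxic-like cells (-1.18, -1.52 to -0.86), the opposite direction to all γδ T-like cells.

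Whether members went with Pdcd1 cell by cell was asked within each library, by comparing cells with and without a Pdcd1 UMI at 2000 UMIs per cell. Thinning draws UMIs at random, so ratios are given as the median and range of 20 draws, beside the draw first planned. That draw lay outside the range of the 20 in 8 of 75 Pdcd1 splits. About 6616.5 of 11617 TIL cells, the median over draws, and 231 of 9021 IEL cells had a Pdcd1 UMI.

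Over all γδ T-like cells, Nr4a2 was lower in cells with Pdcd1 in both libraries and in every draw. In TIL the log2 ratio was -0.82 (-0.91 to -0.72; first draw -0.86), and in IEL -0.86 (-1.04 to -0.63; first draw -0.85). In the first draw 15.1% of TIL cells with 3 or more Pdcd1 UMIs and 27.5% of TIL cells with none had Nr4a2. Part of this came with cluster: within clusters the ratio was -0.34 (-0.48 to -0.24) in TIL and -0.49 (-0.69 to -0.30) in IEL. In the first draw, 3.19% of 5609 genes were lower and 2.23% higher by 1.5-fold or more in TIL cells with Pdcd1, and 4.53% of 6288 genes were lower and 6.46% higher in IEL cells with Pdcd1. In TIL IL-17-like cells the Nr4a2 ratio was -0.31 (-0.46 to -0.21), short of 1.5-fold, where 0.273% of 5501 genes were lower and 0.127% higher by the rule. In IEL cytotoxic-like cells it was -0.74 (-0.91 to -0.52), where 4.36% of 6195 genes were lower and 5.31% higher. Recirculating-like TIL cells did not follow, with an Nr4a2 ratio of 0.31 (-0.05 to 0.90; first draw 0.10).

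Tox had ratios close to 0 over TIL cells. In TIL its ratio was 0.07 (-0.08 to 0.21; first draw 0.06), and 12.9% of cells with Pdcd1 and 12.5% of cells without had Tox in the first draw. In IEL the ratio was 0.28 (-0.05 to 0.67; first draw 0.18). Within clusters it was 0.12 (-0.06 to 0.27) in TIL and 0.06 (-0.33 to 0.40) in IEL. Over all TIL cells, a difference of the size seen for Nr4a2 lay outside the range and the counting interval of the first draw (-0.08 to 0.20). In IEL the counting interval of the first draw was -0.29 to 0.61. All barcodes gave 0.70 in IEL, and requiring a γδ receptor UMI and no Trac UMI gave 0.76. The range of draws covers thinning only, so it sets no bound on Tox in IEL.

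In TIL cytotoxic-like cells the first draw gave a Tox ratio of 1.07 (counting interval 0.53 to 1.58), from 38 UMIs in 97 cells with Pdcd1. The 20 draws gave a median of 0.29 and a range of -0.32 to 0.98, so the first value lay outside what the other draws gave and no link is read from it. In that split 3.54% of 6181 genes were higher and 3.49% lower by 1.5-fold or more. Pdcd1 itself was detected in 8.92% of TIL cytotoxic-like cells and in 12.9% of macrophage or monocyte-like cells of the same library, so detection in TIL cytotoxic-like cells did not exceed that level. The macrophage or monocyte-like cells had Trdc in 36.4% of cells, so they held RNA of γδ T cells, and Pdcd1 was detected in 12.1% of the Gzmc cluster and 2.94% of the Bcl2l15 cluster. Expression and background could not be told apart from these shares. In recirculating-like TIL cells, where 17.4% had Pdcd1, the Tox ratio was 0.84 (0.27 to 1.52; first draw 0.37, counting interval -0.68 to 1.32), from a median of 109 cells with Pdcd1, where 3.63% of 5395 genes were higher and 1.17% lower in the first draw.

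Over all TIL cells, Nr4a1 and Nr4a3 were slightly lower in those with Pdcd1. The Nr4a1 ratio was -0.32 over all TIL cells (-0.48 to -0.14; first draw -0.15) and -0.43 within clusters (-0.53 to -0.21). The Nr4a3 ratio was -0.13 (-0.28 to -0.06; the first draw, -0.05, lay just outside) and -0.27 within clusters (-0.40 to -0.17). In TIL IL-17-like cells the Nr4a1 ratio was -0.53 (-0.67 to -0.32; the first draw, -0.32, lay just outside), further from 0 than that of Nr4a2 there. In recirculating-like TIL cells Nr4a3 gave 0.31 (0.04 to 0.85; first draw 0.72, counting interval 0.29 to 1.13) and Nfatc1 0.13 (-0.55 to 0.85; first draw 0.77, counting interval 0.15 to 1.36). In IEL the Nr4a1 ratio was 0.56 (0.17 to 0.80), but the first draw gave 0.04, outside that range. Within clusters the IEL ratio of Nr4a1 was 0.04 (-0.29 to 0.34), and in IEL cytotoxic-like cells -0.12 (-0.61 to 0.31). For Nr4a3 the IEL ratio was 0.02 (-0.29 to 0.32; first draw -0.28, counting interval -0.64 to 0.05). The first draw of Nr4a3 gave -0.59 within IEL clusters. In IEL cytotoxic-like cells it gave -0.54 (counting interval -0.97 to -0.14). Nfatc1 gave -0.26 (-0.37 to -0.13; first draw -0.21) in TIL, -0.07 (-0.20 to 0.13) within TIL clusters, and 0.09 (-0.71 to 0.68) in IEL.

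**Figure D3:**
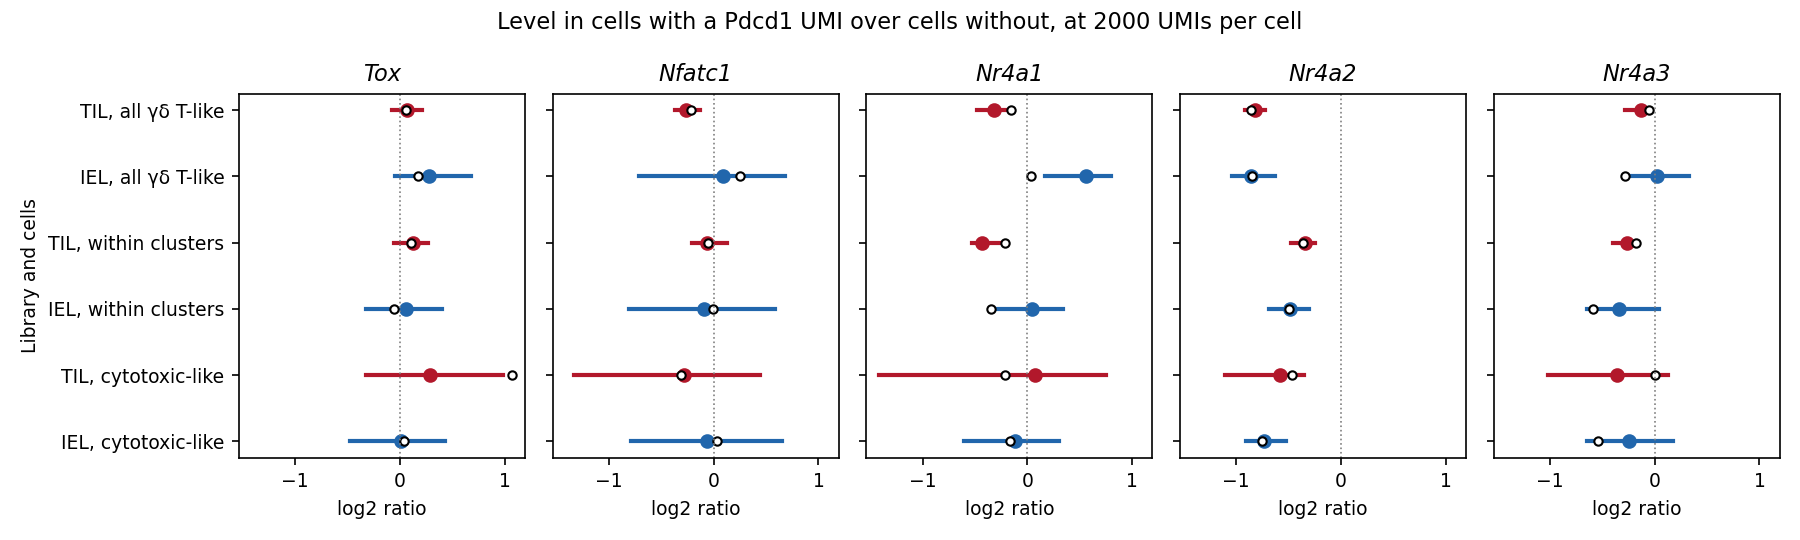
Log2 ratio of each member's level in cells with a Pdcd1 UMI over cells without, at 2000 UMIs per cell: filled points are the median and lines the lowest to highest of 20 draws, open points the first draw. Nr4a2 lies below 0 in the 6 rows plotted, which do not show recirculating-like cells as a group of their own, whereas the open point of Tox in TIL cytotoxic-like cells, at 1.07, lies outside its line.

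Among other inhibitory receptors, Ctla4 split Nr4a2 over all TIL cells in the direction of Pdcd1, and Lag3 and Tigit the other way. Havcr2 (TIM-3), Lag3, Tigit and Ctla4 were looked at after the Pdcd1 values were seen, in 40 member-by-receptor splits over the 2 libraries. All 20 draws lay on one side of 0 in 20 of the 40 splits, in 7 within clusters, and in 5 both ways. The draws thin the same cells, so these counts reflect thinning only. The share of all genes meeting this rule was not computed, so no link is read from the counts. In TIL, Nr4a2 gave 0.87 (0.74 to 1.02) with Lag3, 0.88 (0.34 to 1.32) with Tigit, -0.49 (-0.56 to -0.37) with Ctla4 and 0.04 (-0.05 to 0.14) with Havcr2. Within clusters the Nr4a2 ratios were 0.09 (-0.05 to 0.29) with Lag3, -0.01 (-0.45 to 0.28) with Tigit, -0.11 (-0.20 to 0.05) with Ctla4 and 0.31 (0.18 to 0.41) with Havcr2. Nr4a3 was higher in TIL cells with a Havcr2 UMI, at 0.60 (0.49 to 0.70), and at 0.42 (0.25 to 0.50) within clusters. In the first draw 32.5% of TIL cells with Havcr2 and 24.6% of those without had Nr4a3, and 2.19% of 5612 genes were higher and 2.17% lower by 1.5-fold or more. In IEL the Nr4a3 ratio was 0.23 (-0.07 to 0.55), where 2.25% of 6041 genes were higher and 2.14% lower.

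Members of the Nr4a family were found together in cells of the same cluster. In TIL, cells with both Nr4a1 and Nr4a2 were 1.55 times (range of 20 draws 1.49 to 1.63) as many as their separate shares within clusters give. The figure was 1.52 times (1.42 to 1.58) for Nr4a1 with Nr4a3 and 1.38 times (1.35 to 1.42) for Nr4a2 with Nr4a3. In IEL the same pairs gave 1.09 (1.08 to 1.11), 1.22 (1.17 to 1.27) and 1.11 (1.10 to 1.14). Since Nr4a2 was detected in 67.5% of IEL cells, its pairs had less room above 1 there. Tox with each Nr4a gene gave medians of 1.07 to 1.10 in TIL and 0.95 to 1.02 in IEL. Nfatc1 with each Nr4a gene gave medians of 1.17 to 1.20 in TIL, with ranges above 1, and 1.03 to 1.10 in IEL. Pairs of genes other than the members were not counted, so no background is given.

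**Figure D4:**
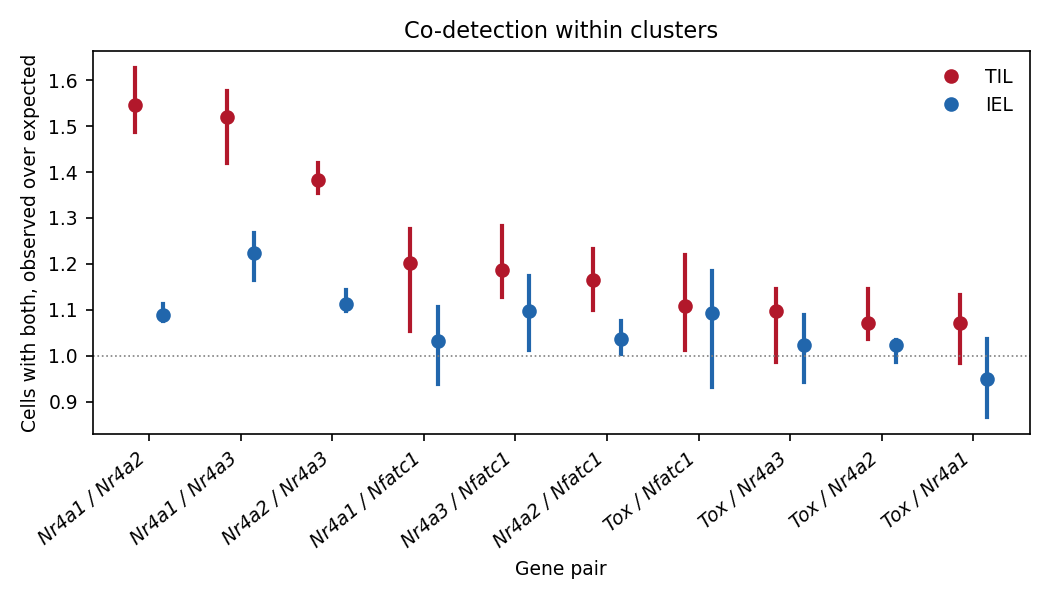
Cells with a UMI of both genes of a pair over the number expected from each gene's share within clusters, at 2000 UMIs per cell: points are the median and lines the lowest to highest of 20 draws. The 3 Nr4a pairs are highest in TIL, between 1.38 and 1.55, against 1.09 to 1.22 in IEL.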

How the data were processed

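The deposited matrices hold raw UMI counts per gene and barcode, per the file headers, made with Cell Ranger 6.1.1 on mm10, per the submitters' processing notes. The other values in the deposited feature and barcode files are names only. Cells with at least 500 genes, 1000 UMIs and at most 10% mitochondrial UMIs were kept. Both libraries were clustered together (scanpy 1.11.5, igraph 0.11.9; 2000 variable genes, 30 components, 15 neighbours, Leiden resolution 1.0), with the members, inhibitory receptors and receptor segments kept out of the variable genes. Clusters were named from marker lists. No doublet caller was used; 402 TIL and 21 IEL cells of a cluster with mixed markers and high UMI totals, and droplets with at least 5% haemoglobin UMIs, were set apart by rules chosen after the data were seen. Levels are summed counts as CPM, with exact Poisson or conditional 95% intervals; shares have Clopper-Pearson intervals. A gene was called at 20 CPM in either group, 2-fold (1.5-fold for splits by a receptor) and an interval excluding 1. No test across samples was possible. Genes named beside the members were the list members past that rule, the largest with values, and the 5 most alike per member. Ratios within clusters are Mantel-Haenszel ratios. Calculations were tested on simulated data.

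Members and lists were chosen with earlier results of these data known. Leading with the median of 20 draws, the ratios within clusters, the single TIL clusters, the heat shock contrast, the IEL IL-17-like cells and the other receptors were chosen after the values were seen.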

Additional observations from a re-analysis of the deposited data

How the results depend on the processing

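All values are log2 ratios unless named otherwise. Of 217 alternative values, 131 stayed within the counting interval of the value reported (list counts, within 1.5 times), and 86 did not. Of all 217, 34 had the opposite sign, of which 5 where the interval of the reported value excluded 0 and 29 where it included 0. Nr4a2 stayed lower in TIL over all γδ T-like cells under every alternative run. Requiring a γδ receptor UMI and no Trac UMI in each cell kept 7637 TIL and 2010 IEL cells and gave TIL over IEL ratios of -0.26 for Tox, 0.44 for Tox2, -0.35 for Nr4a1, -2.10 for Nr4a2 and -0.19 for Nfatc1. Its Pdcd1 splits were -0.37 (Nr4a1) and -0.47 (Nr4a2) in TIL, and 0.76 (Tox), 0.67 (Nr4a1), 0.21 (Nr4a3) and -0.29 (Nfatc1) in IEL. Setting the median gene ratio to 1 gave -0.24 (Tox), -0.11 (Nr4a1), -2.13 (Nr4a2), 0.12 (Nr4a3) and -0.18 (Nfatc1). Leaving out the heat shock cluster gave -0.068 for Nr4a1 and -0.037 for Nr4a3 between libraries, and Nr4a1 Pdcd1 splits of -0.27 in TIL and 0.47 in IEL.

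For the Pdcd1 splits, the highest of 20 draws were 0.21 (Tox) and -0.72 (Nr4a2) in TIL, 0.67 (Tox), 0.80 (Nr4a1), -0.63 (Nr4a2) and 0.32 (Nr4a3) in IEL, and 0.75 (Nr4a1) in TIL cytotoxic-like cells. The lowest were -0.48 (Nr4a1), -0.28 (Nr4a3) and -0.37 (Nfatc1) in TIL, -0.71 (Nfatc1) in IEL, and -0.32 (Tox), -1.41 (Nr4a1), -1.11 (Nr4a2), -1.02 (Nr4a3) and -1.33 (Nfatc1) in TIL cytotoxic-like cells. The medians that moved were -0.32 for Nr4a1 in TIL, 0.56 for Nr4a1 in IEL and 0.29 for Tox in TIL cytotoxic-like cells. The stricter cell filter gave -0.32 (Nr4a1), -0.76 (Nr4a2) and -0.19 (Nr4a3) in TIL and 0.44 (Nr4a1) in IEL. All barcodes gave -0.16 (Nr4a3) in TIL, and 0.70 (Tox), 0.50 (Nr4a1) and 0.12 (Nr4a3) in IEL. Thinning to 1000 UMIs gave -0.28 (Nr4a1) and -0.67 (Nr4a2) in TIL, and 0.92 (Nr4a1) and 0.18 (Nr4a3) in IEL; to 4000 UMIs, -1.02 (Nr4a2) and -0.16 (Nr4a3) in TIL. Within clusters, the first draw gave -0.36 (Nr4a2), -0.18 (Nr4a3) and -0.053 (Nfatc1) in TIL and -0.50 (Nr4a2) in IEL, and with quartiles of total UMIs -0.36, -0.16 and -0.058 in TIL, and -0.36 (Nr4a1) and -0.47 (Nr4a2) in IEL.

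Shares of cells, TIL minus IEL in percentage points, were -2.24 (Nr4a1) and -33.6 (Nr4a2) at 1000 UMIs. They were -4.26 (Tox), -7.12 (Nr4a1), -50.2 (Nr4a2) and -3.56 (Nfatc1) at 4000 UMIs. Unthinned they were -8.18 (Tox), -10.6 (Nr4a1), -48.0 (Nr4a2), -2.43 (Nr4a3) and -7.18 (Nfatc1). In cytotoxic-like cells, TIL over IEL, the Gzmc cluster alone gave -0.15 (Tox), -1.26 (Nr4a1), -1.34 (Nr4a2), -0.16 (Nr4a3) and -0.39 (Nfatc1), and the Bcl2l15 cluster alone 0.63 (Tox), 0.019 (Tox2), -1.81 (Nr4a1), 0.13 (Nr4a2), 0.41 (Nr4a3) and 1.11 (Nfatc1). Counting list genes from 5 CPM gave 2 lower calcineurin and NFAT genes and 1 higher dissociation stress gene. Causes of these shifts were not tested. No paired analysis was possible because each group had 1 library. Depth limits Tox2 and the splits in TIL cytotoxic-like and IEL cells, which rest on few cells with Pdcd1.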
